A study of Mus musculus with 6 samples.

Results

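The 42 genes described here encode the machinery of the G2/M transition and of the mitotic spindle: mitotic cyclins and CDK1, the transcription factors and kinases of mitosis, the spindle checkpoint, kinetochores, spindle motors and the cytokinesis apparatus. They were chosen by symbol from a list of such genes, and all 42 were found among the 27179 genes of the study and had an adjusted p in both of its comparisons. The study sequenced RNA of the mouse line C2C12, immortalised myoblasts, taken 48 h after a change to medium with 2% horse serum and 2 µg/ml insulin, which induces differentiation. The cells were stably transfected with an shRNA construct against BAF250A, with one against BRD9, or with a scrambled shRNA, and each of the 3 groups has 2 libraries, described as biological duplicates. BAF250A, encoded by Arid1a, is a subunit that defines BAF, and BRD9 one that defines ncBAF, both of them subfamilies of SWI/SNF remodellers, which move or evict nucleosomes. The series title asks whether muscle differentiation depends on these 2 subfamilies to different degrees. The sources used here do not say how many clones, hairpins or separate cultures each group stands for, so the p-values measure the spread between these libraries.

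Entry into mitosis is driven by the kinase CDK1 bound to B-type cyclins, and exit from it by the anaphase-promoting complex (APC/C), a ubiquitin ligase that marks those cyclins for destruction once the spindle checkpoint is satisfied. Most genes of this machinery are transcribed together late in the cell cycle through promoter elements called CHR and CCAAT, read by the DREAM and MuvB complexes and by NF-Y. Myoblasts leave the cell cycle when they differentiate, and these genes are then normally switched off, so their RNA level is widely used as a sign of cells that still cycle. In RNA from a whole culture, fewer cycling cells and less RNA per cycling cell cannot be told apart.

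The deposited material is 1 table per knockdown, and reads per library were recovered from the values in these tables for all 42 genes. They are given below as normalised reads, which are reads divided by the size factor of the library, in the order in which the libraries were recovered, since which of them carries the label A or B is not known. Arid1a had 1273 and 1004 normalised reads in the BAF250A knockdown, against 6202 and 3084 in scrambled cells. Brd9 had 181 and 363 in the BRD9 knockdown, against 758 and 978 in scrambled cells. In neither case did the groups overlap, but the sign of the fold changes was itself read from these 2 genes. Reads in the 14061 genes with recovered reads were 43352734 and 40625449 in the scrambled libraries. They ran between 26235963 and 27568049 in the knockdown libraries, so both scrambled libraries held more reads than every knockdown library. The part of this difference in the results below was not tested. Of these reads, the 42 genes took between 0.244% and 0.518% per library. Among single genes and libraries, the reads of the 42 ran between 135 and 21883, so counting error is small beside the spread between libraries. The scrambled libraries stood apart from each other: 39.7% of the 11284 genes with a mean of at least 100 normalised reads differed more than 2-fold between them, against 1.63% between the BAF250A libraries and 12.8% between the BRD9 libraries.

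The promoters of 6 genes are printed, chosen by the calls of these genes and not by their sequence. Ccnb1, Ccnb2, Cks2, Ube2c and Racgap1 were called higher in the BAF250A knockdown whichever library was left out, and Cenpf is the gene that was lower in the BRD9 knockdown. Each window runs from 250 bases before to 50 bases after a transcript start listed by RefSeq on GRCm38.p6, the assembly also known as mm10, 5′ to 3′ on the strand of the gene. Capitals mark the CHR letters TTTGAA or TTCAAA and the CCAAT letters CCAAT or ATTGG, each searched on both strands.
Ccnb1, chr13:100786437-100786736, minus strand: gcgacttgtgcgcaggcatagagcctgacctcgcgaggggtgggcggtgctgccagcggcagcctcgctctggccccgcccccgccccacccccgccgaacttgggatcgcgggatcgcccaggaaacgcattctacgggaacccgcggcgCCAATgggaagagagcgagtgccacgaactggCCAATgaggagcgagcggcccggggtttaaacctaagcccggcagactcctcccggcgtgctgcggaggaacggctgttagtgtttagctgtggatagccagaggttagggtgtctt
Ccnb2, chr9:70421505-70421804, minus strand: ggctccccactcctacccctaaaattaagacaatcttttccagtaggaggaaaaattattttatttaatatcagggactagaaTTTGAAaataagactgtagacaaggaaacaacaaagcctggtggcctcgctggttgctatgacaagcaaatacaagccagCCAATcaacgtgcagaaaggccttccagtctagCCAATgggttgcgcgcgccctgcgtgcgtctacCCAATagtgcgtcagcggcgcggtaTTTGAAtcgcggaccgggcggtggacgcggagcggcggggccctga
Cks2, chr13:51644982-51645281, plus strand: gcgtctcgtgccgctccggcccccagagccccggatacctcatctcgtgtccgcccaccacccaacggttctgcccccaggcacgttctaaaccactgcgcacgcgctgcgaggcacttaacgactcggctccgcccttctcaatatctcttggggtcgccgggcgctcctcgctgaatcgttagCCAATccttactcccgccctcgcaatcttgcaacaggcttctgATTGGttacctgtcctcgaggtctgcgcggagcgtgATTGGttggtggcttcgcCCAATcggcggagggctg
Ube2c, chr2:164769679-164769978, plus strand: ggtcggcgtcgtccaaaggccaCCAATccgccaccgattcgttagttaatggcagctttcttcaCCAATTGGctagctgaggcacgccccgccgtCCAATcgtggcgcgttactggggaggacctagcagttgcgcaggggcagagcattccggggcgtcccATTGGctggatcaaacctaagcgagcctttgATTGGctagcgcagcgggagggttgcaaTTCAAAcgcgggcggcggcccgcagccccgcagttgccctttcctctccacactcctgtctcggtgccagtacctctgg
Racgap1, chr15:99651607-99651906, minus strand: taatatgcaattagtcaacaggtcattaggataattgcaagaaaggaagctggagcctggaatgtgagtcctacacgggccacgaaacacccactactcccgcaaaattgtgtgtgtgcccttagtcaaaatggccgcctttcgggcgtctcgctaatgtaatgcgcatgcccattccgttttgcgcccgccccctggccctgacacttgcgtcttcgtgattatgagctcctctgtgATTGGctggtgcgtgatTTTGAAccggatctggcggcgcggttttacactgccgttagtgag
Cenpf, chr1:189688037-189688336, minus strand: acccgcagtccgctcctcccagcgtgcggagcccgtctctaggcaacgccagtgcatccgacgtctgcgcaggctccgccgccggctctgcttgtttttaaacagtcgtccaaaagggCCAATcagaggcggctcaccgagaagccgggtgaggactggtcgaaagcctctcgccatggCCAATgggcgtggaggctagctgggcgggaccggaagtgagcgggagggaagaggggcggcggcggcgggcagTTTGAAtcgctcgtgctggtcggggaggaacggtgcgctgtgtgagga
Of the 42 genes, 36 had a promoter entry, while Incenp, Kif20a, Aurkb, Tpx2, Foxm1 and Cdc25c had none. The start used was the outermost start of the gene in 20 of the 36 and lay within 100 bases of it in 31, for Cenpf 21 bases inside the gene. The exceptions were Aurka, Cdca3, Ect2, Mybl2 and Kif2c, whose window lies around a start 3852 bases inside the gene. The CHR letters were found in 26 of the 36, or 72.2%, against 20.2% of 27025 genes of the genome with a window of the same length. The CCAAT letters were found in 28 of the 36, or 77.8%, against 41.1% of all genes, and 23 of the 36 held both. Ccnb2 and Racgap1 are among those with both, whereas the Ccnb1 and Cks2 windows held CCAAT letters only. Across the 26 genes with CHR letters the median of the log2 fold changes stood at 0.84 for BAF250A and at 0.19 for BRD9, and across the 10 without it stood at 1.20 and 0.30. These are descriptions of the letters in each window, and other spellings of either element were not searched.

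The RNA of these genes was on the whole more abundant in the BAF250A knockdown than in scrambled cells, while few of them were called in the BRD9 knockdown. A test of the difference between the knockdowns, given below, called 0 of the 42, beside 0.552% of all genes higher and 1.99% lower. The median standard error of the 42 was 0.46 with BAF250A and 0.54 with BRD9. By the authors' Wald test at an adjusted p below 0.05, 15 of the 42 were higher in the BAF250A knockdown and 0 were lower in the authors' deposited table, where 11.2% of all 16450 genes tested were called higher and 17.5% lower. At an unadjusted p below 0.05 the same table had 19 of the 42 higher and 0 lower, beside 15.2% and 22.9% of all genes. In addition, limma on the recovered reads called 15 higher and 0 lower, 14 of them shared with the Wald test, beside 10.7% and 16.4% of 14061 genes. In the BRD9 knockdown, 2 genes were higher and 1 was lower in the authors' deposited table, beside 5.11% and 9.33% of 17198 genes tested. At an unadjusted p below 0.05, 4 of the 42 were higher and 3 lower there, beside 9.16% and 14.9% of all genes. By limma, the calls were the same 3 genes as by the Wald test, beside 6.51% of all genes higher and 10.8% lower. The 2 of 42 called higher are thus a share near the background. The median log2 fold change of the 42 was 0.89 with BAF250A, where 38 were positive, and the median over all genes tested was -0.18, or 0.03 among genes with a mean of at least 100. With BRD9 the median of the 42 was 0.18, with 25 positive, and the median over all genes tested was -0.15, or 0.045 among genes with a mean of at least 100. Both comparisons use the same 2 scrambled libraries.

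**Figure D1:**
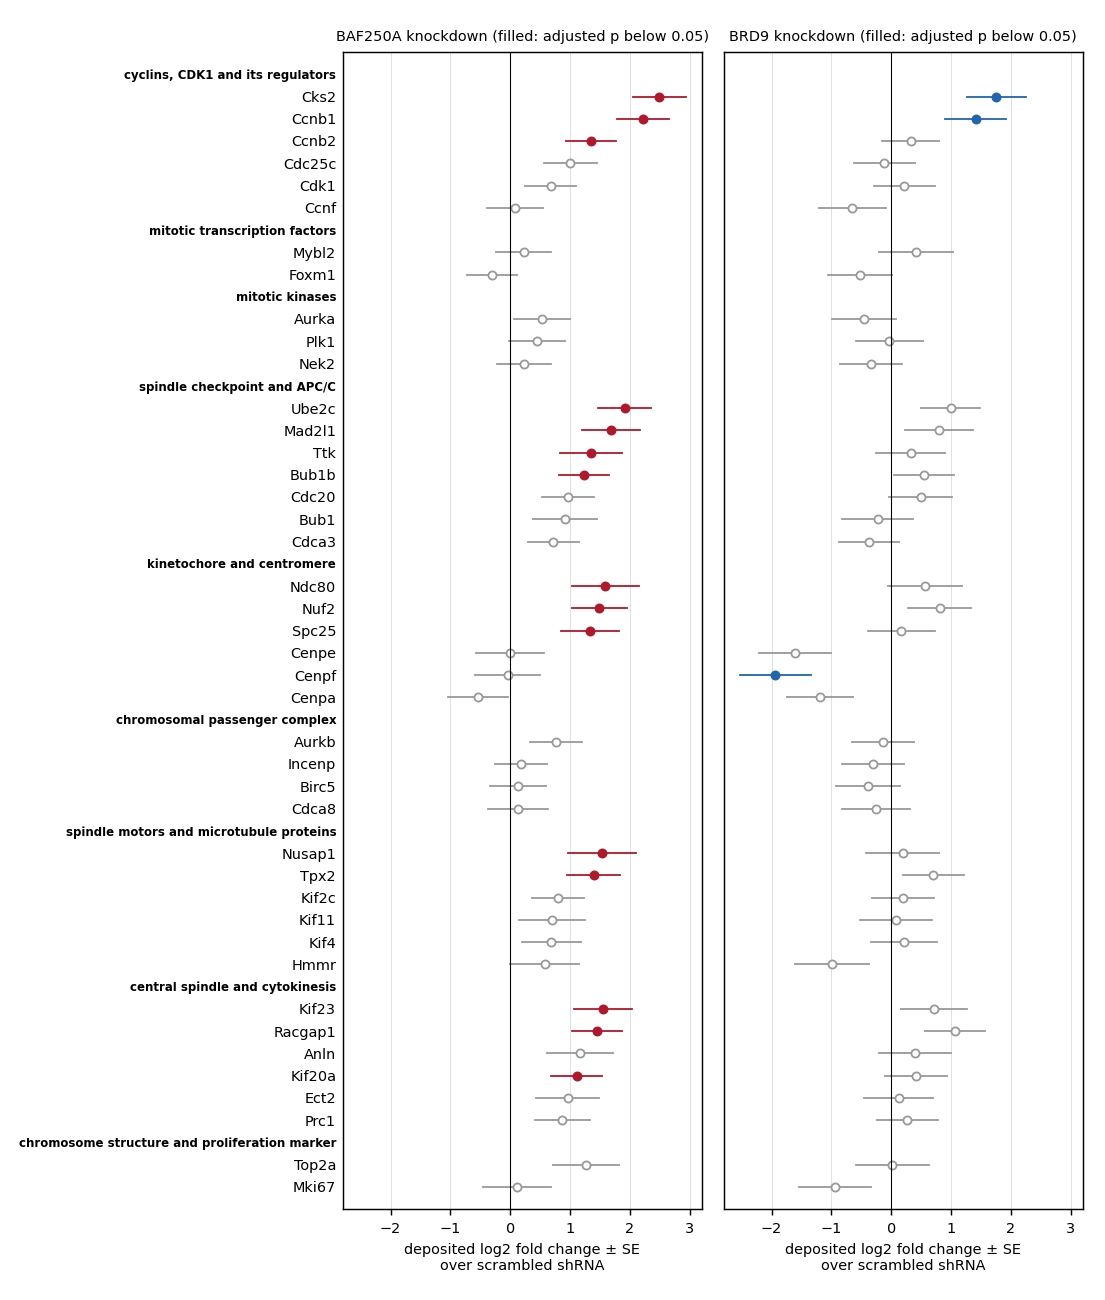
Deposited log2 fold changes of the 42 genes over scrambled shRNA with their standard errors as bars, in the BAF250A knockdown and the BRD9 knockdown, by role. With BAF250A, 38 of the 42 points lie above 0 and 15 pass the test, whereas with BRD9 the points lie on both sides of 0 and 3 pass.

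Summed over the 42 genes, the BAF250A libraries had 158100 and 159528 normalised reads, the BRD9 libraries 75721 and 114427, and the scrambled libraries 99218 and 86059. The BAF250A sums thus lay above all others, and the BRD9 and scrambled sums overlapped. Gene by gene, both BAF250A libraries lay above both scrambled libraries for 29 of the 42 genes, or 69.0%, while 33.7% of the 11284 genes with a mean of at least 100 did so. Both lay below for 1 gene, Foxm1, or 2.38%, beside 29.1% of those genes. For the BRD9 knockdown, both libraries lay above both scrambled libraries for 9 genes, or 21.4%, beside 27.4%, and below for 4 genes, or 9.52%, beside 19.8%. Neither BRD9 share exceeds its background. All 15 genes called in the BAF250A knockdown had groups that did not overlap, but the calls rest on the same libraries, so this is no separate test of them.

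**Figure D2:**
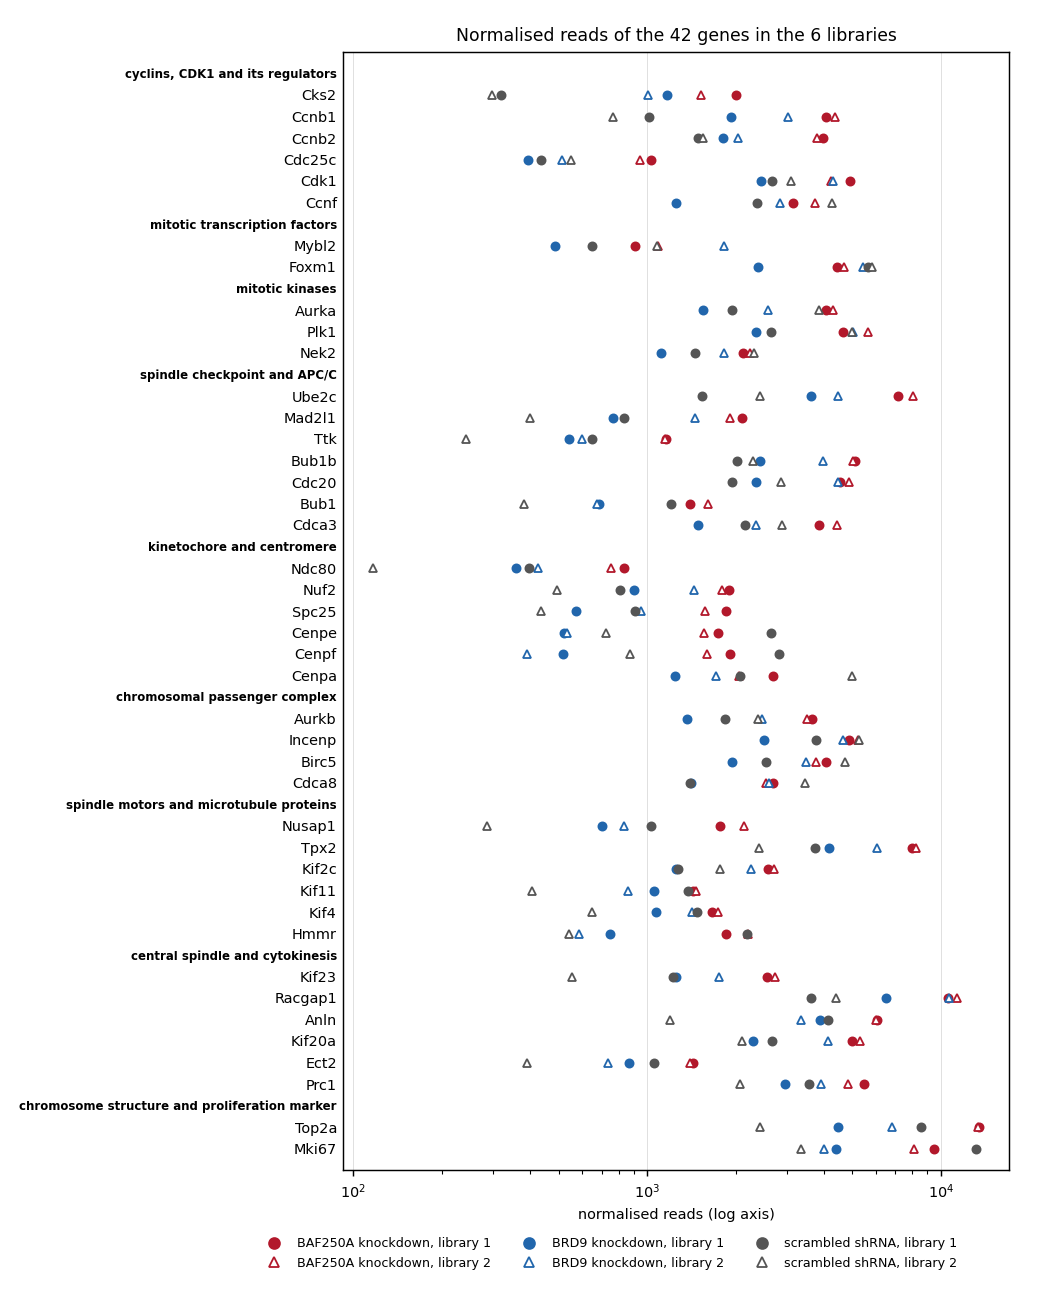
Normalised reads of the 42 genes in each library on a log axis, with the BAF250A libraries first, then the BRD9 libraries and the scrambled libraries. The 2 BAF250A points of a gene lie close together, while the scrambled points of genes such as Top2a and Mki67 lie far apart.

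Of the 6 genes for mitotic cyclins, CDK1 and its regulators, 3 rose in the BAF250A knockdown and 2 of these also rose in the BRD9 knockdown. For this group and the groups below, the shares of all genes tested called higher were 11.2% with BAF250A and 5.11% with BRD9. Those called lower were 17.5% and 9.33%. Cks2, which encodes a small protein that binds CDK1, had 2005 and 1529 normalised reads in BAF250A knockdown cells and 1169 and 1005 in BRD9 knockdown cells, against 318 and 297 in scrambled cells. The 3 groups did not overlap and scrambled cells were lowest. The log2 fold change of Cks2 in the authors' deposited tables was 2.49 (SE 0.44, adjusted p 2.22e-07) with BAF250A and 1.76 (SE 0.49, adjusted p 0.00378) with BRD9. Ccnb1, cyclin B1, had 4067 and 4371 normalised reads in the BAF250A knockdown and 1924 and 3027 in the BRD9 knockdown, against 1017 and 764 in scrambled cells. It too had scrambled cells lowest with no overlap. The authors' deposited tables give Ccnb1 a log2 fold change of 2.22 (SE 0.43, adjusted p 3.29e-06) with BAF250A and 1.42 (SE 0.51, adjusted p 0.0394) with BRD9. Ccnb2, cyclin B2, had 3972 and 3789 normalised reads in the BAF250A knockdown and 1811 and 2037 in the BRD9 knockdown, against 1495 and 1549 in scrambled cells. Its values were close together within every group, and only the BAF250A change passed the test. For Ccnb2 the authors' deposited tables give 1.35 (SE 0.42, adjusted p 0.00701) with BAF250A and 0.33 (SE 0.48, adjusted p 0.743) with BRD9.

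Cdk1 itself, the mitotic kinase that the B cyclins activate, did not pass in either comparison. It had 4923 and 4213 normalised reads in the BAF250A knockdown and 2451 and 4283 in the BRD9 knockdown, against 2658 and 3100 in scrambled cells, so that the BAF250A libraries lay above the scrambled ones and the BRD9 libraries on both sides of them. Cdc25c, a phosphatase that activates CDK1, lay just outside the threshold with BAF250A: it had 1034 and 946 normalised reads there and 394 and 512 in the BRD9 knockdown, against 437 and 550 in scrambled cells. The authors' deposited tables give Cdc25c 1.01 (SE 0.44, adjusted p 0.0709) with BAF250A and -0.12 (SE 0.51, adjusted p 0.925) with BRD9. Ccnf, cyclin F, a substrate receptor of an SCF ubiquitin ligase, overlapped in every comparison with scrambled cells, with 3149 and 3732 normalised reads in the BAF250A knockdown and 1253 and 2837 in the BRD9 knockdown, against 2363 and 4252 in scrambled cells.

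Several of these genes share sequence with other genes, which bears on how reads were assigned. Of the 42 genes, 12 had more than 10% of their 31-base words in another gene of the mouse annotation, and Ccnb1 had 46.9%. Its pseudogene Ccnb1-ps, counted separately by the authors, had 58.2 and 77.5 normalised reads in the BAF250A knockdown and 32.7 and 39.2 in the BRD9 knockdown, against 1257 and 1057 in scrambled cells. The pseudogene thus went the opposite way to Ccnb1. Summed over gene and pseudogene, the values were 4125 and 4449 in the BAF250A knockdown and 1957 and 3066 in the BRD9 knockdown, against 2275 and 1821 in scrambled cells. The log2 ratio of the mean sums was 1.07 for BAF250A and 0.29 for BRD9. The summed BAF250A values lay above the scrambled ones, and the summed BRD9 values overlapped them. Kif2c and Gm4961 showed the same arrangement, with Gm4961 at 18.6 and 9.69 normalised reads in the BAF250A knockdown and 6.53 and 2.31 in the BRD9 knockdown, against 453 and 754 in scrambled cells. The log2 ratio of their summed means was 0.32 for BAF250A and -0.27 for BRD9. Whether reads were divided differently between such pairs in different libraries was not tested.

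**Figure D3:**
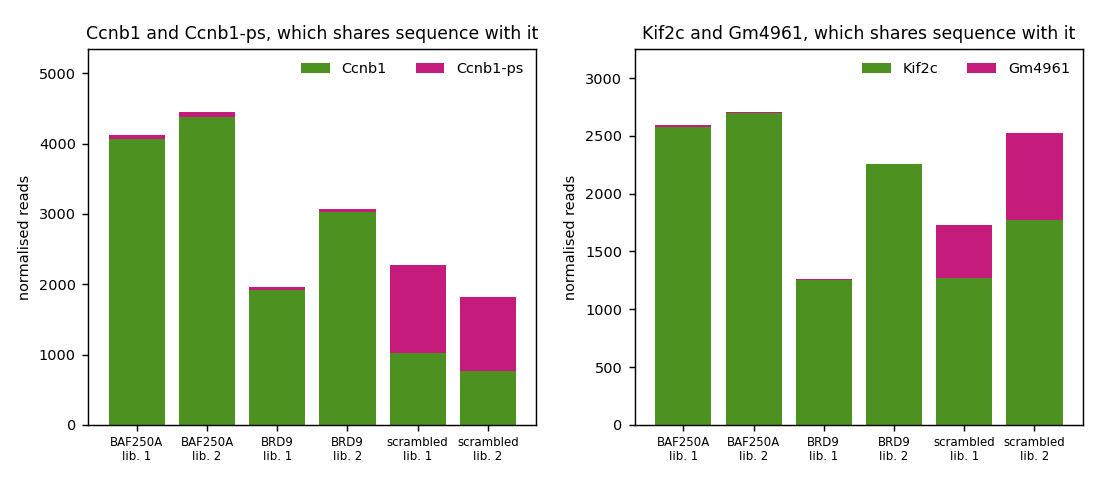
Normalised reads of Ccnb1 with Ccnb1-ps and of Kif2c with Gm4961 in each library. In the knockdown libraries nearly all reads lie with the named gene, while in the scrambled libraries a large share lies with the copy.

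Among the 30 genes with at most 10% of shared words, 9 were called higher in the BAF250A knockdown, with a median log2 fold change of 0.74. The same 30 had 0 called higher and 1 called lower in the BRD9 knockdown, with a median of -0.13, so the sign of the BRD9 median turns without the shared genes. Both genes called higher with BRD9, Cks2 and Ccnb1, are among the 12 that share sequence: Cks2 had 31.7% of its words in another gene. The 12 had 6 called higher with BAF250A, at a median of 1.04, and 2 with BRD9, at a median of 0.45. Over all genes tested, 11.2% were called higher with BAF250A, and with BRD9 5.11% were called higher and 9.33% lower. Neither BRD9 count among the 30 is a larger share than that of all genes.

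Neither mitotic transcription factor and none of the 3 mitotic kinases passed the Wald test, an unadjusted p of 0.05 or limma in either knockdown. Foxm1, a factor that drives late cell cycle genes, had 4434 and 4675 normalised reads in the BAF250A knockdown and 2393 and 5438 in the BRD9 knockdown, against 5629 and 5839 in scrambled cells, and was the 1 gene with both BAF250A libraries below both scrambled libraries. Mybl2, the MuvB partner B-MYB, had 910 and 1086 in the BAF250A knockdown and 484 and 1829 in the BRD9 knockdown, against 650 and 1078 in scrambled cells. The BRD9 libraries enclosed those of the other groups. Aurka, Aurora kinase A of the spindle poles, had 4061 and 4282 normalised reads in the BAF250A knockdown and 1551 and 2575 in the BRD9 knockdown, against 1947 and 3844 in scrambled cells. Plk1, Polo-like kinase 1, had 4651 and 5652 in the BAF250A knockdown and 2357 and 5033 in the BRD9 knockdown, against 2637 and 4984 in scrambled cells. Nek2, a centrosome kinase, had 2125 and 2238 in the BAF250A knockdown and 1111 and 1825 in the BRD9 knockdown, against 1451 and 2319 in scrambled cells. The BAF250A libraries lay within the scrambled range for Nek2, 1 within and 1 above it for Plk1, and both above it for Aurka.

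The spindle checkpoint holds APC/C back until chromosomes are attached, and 4 of the 7 genes of this group rose with BAF250A. With BRD9, 0 of the 7 passed the Wald test, 1 (Ube2c) had an unadjusted p below 0.05 and limma called 0. Mad2l1, a checkpoint protein that binds the APC/C activator CDC20, had 2111 and 1911 normalised reads in the BAF250A knockdown and 763 and 1454 in the BRD9 knockdown, against 833 and 398 in scrambled cells. Bub1b, the checkpoint protein BUBR1, had 5091 and 5029 in the BAF250A knockdown and 2421 and 3961 in the BRD9 knockdown, against 2029 and 2291 in scrambled cells. Ttk, the checkpoint kinase MPS1, had 1159 and 1151 in the BAF250A knockdown and 542 and 602 in the BRD9 knockdown, against 649 and 242 in scrambled cells. In all 3 the BAF250A libraries were nearly equal and highest, while the BRD9 libraries overlapped the scrambled ones for Mad2l1 and Ttk. The log2 fold changes with BAF250A in the authors' deposited table were 1.69 (SE 0.48, adjusted p 0.00309) for Mad2l1, 1.23 (SE 0.42, adjusted p 0.0157) for Bub1b and 1.35 (SE 0.52, adjusted p 0.0363) for Ttk. The BRD9 values in the authors' deposited table were 0.80 (SE 0.57, adjusted p 0.415) for Mad2l1, 0.55 (SE 0.50, adjusted p 0.555) for Bub1b and 0.33 (SE 0.58, adjusted p 0.792) for Ttk.

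Ube2c encodes the ubiquitin-conjugating enzyme that works with APC/C. It had 7136 and 8032 normalised reads in the BAF250A knockdown and 3605 and 4480 in the BRD9 knockdown, against 1544 and 2426 in scrambled cells, with no overlap between any of the groups. The authors' deposited tables give it 1.91 (SE 0.44, adjusted p 0.000145) with BAF250A and 1.00 (SE 0.50, adjusted p 0.192) with BRD9. Ube2c had 21.0% of its words in Tnnc2, a troponin gene of muscle, whose log2 fold change in the authors' deposited tables was -3.90 with BAF250A and -0.56 with BRD9. The remaining genes of the group did not pass: Bub1, a checkpoint kinase at the kinetochore, had 1398 and 1610 normalised reads in the BAF250A knockdown and 686 and 673 in the BRD9 knockdown, against 1204 and 381 in scrambled cells. Cdc20, the APC/C activator, had 4521 and 4863 in the BAF250A knockdown and 2342 and 4466 in the BRD9 knockdown, against 1945 and 2858 in scrambled cells. Cdca3, which encodes a trigger of mitotic entry, had 3839 and 4420 in the BAF250A knockdown and 1490 and 2356 in the BRD9 knockdown, against 2154 and 2886 in scrambled cells. In each of the 3 both BAF250A libraries lay above both scrambled libraries.

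Of 6 kinetochore and centromere genes, 3 rose in the BAF250A knockdown and 1 fell in the BRD9 knockdown. The 3 that rose, Ndc80, Nuf2 and Spc25, encode subunits of the NDC80 complex, which binds spindle microtubules. Ndc80 had 833 and 751 normalised reads in the BAF250A knockdown and 359 and 424 in the BRD9 knockdown, against 395 and 117 in scrambled cells. Nuf2 had 1896 and 1794 in the BAF250A knockdown and 906 and 1447 in the BRD9 knockdown, against 809 and 494 in scrambled cells. Spc25 had 1855 and 1570 in the BAF250A knockdown and 574 and 953 in the BRD9 knockdown, against 910 and 434 in scrambled cells. The BAF250A libraries were highest for all 3, and for Ndc80 and Spc25 the BRD9 libraries overlapped the scrambled ones. The authors' deposited table gives log2 fold changes with BAF250A of 1.59 (SE 0.56, adjusted p 0.02) for Ndc80, 1.49 (SE 0.46, adjusted p 0.00589) for Nuf2 and 1.34 (SE 0.49, adjusted p 0.0253) for Spc25. With BRD9 the authors' deposited table gives 0.56 (SE 0.62, adjusted p 0.642), 0.81 (SE 0.53, adjusted p 0.365) and 0.17 (SE 0.56, adjusted p 0.898) for the same genes in that order.

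The other 3 kinetochore genes had log2 fold changes near or below 0 with BAF250A. Cenpf, a large protein of the outer kinetochore, had 1923 and 1599 normalised reads in the BAF250A knockdown and 516 and 390 in the BRD9 knockdown, against 2811 and 876 in scrambled cells. Both BRD9 libraries lay below both scrambled libraries, which differed more than 2-fold from each other. The authors' deposited tables give Cenpf -0.04 (SE 0.54, adjusted p 0.966) with BAF250A and -1.94 (SE 0.59, adjusted p 0.0105) with BRD9. Cenpe, a kinesin that moves chromosomes to the spindle equator, had 1749 and 1565 in the BAF250A knockdown and 520 and 533 in the BRD9 knockdown, against 2652 and 724 in scrambled cells. Cenpa, the histone variant that marks the centromere, had 2693 and 2062 in the BAF250A knockdown and 1241 and 1718 in the BRD9 knockdown, against 2075 and 4998 in scrambled cells. Both were lowest in the BRD9 libraries, and neither passed there: the authors' deposited table gives Cenpe -1.61 (SE 0.61, adjusted p 0.0551) and Cenpa -1.19 (SE 0.55, adjusted p 0.145). With BAF250A the authors' deposited table gives Cenpe -0.0037 (SE 0.56, adjusted p 0.997) and Cenpa -0.53 (SE 0.50, adjusted p 0.464).

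The chromosomal passenger complex corrects faulty attachments and positions the cleavage furrow, and 0 of its 4 genes passed the Wald test, an unadjusted p of 0.05 or limma in either knockdown. Aurkb, its kinase Aurora B, had 3649 and 3515 normalised reads in the BAF250A knockdown and 1369 and 2453 in the BRD9 knockdown, against 1848 and 2392 in scrambled cells. It was the only one of the 4 with both BAF250A libraries above both scrambled libraries. Birc5, survivin, had 4049 and 3762 in the BAF250A knockdown and 1953 and 3485 in the BRD9 knockdown, against 2536 and 4711 in scrambled cells. Incenp, the scaffold, had 4881 and 5227 in the BAF250A knockdown and 2501 and 4662 in the BRD9 knockdown, against 3764 and 5247 in scrambled cells. Cdca8, borealin, had 2681 and 2534 in the BAF250A knockdown and 1408 and 2595 in the BRD9 knockdown, against 1398 and 3450 in scrambled cells. The log2 fold changes of the 4 in the authors' deposited tables lay between 0.12 and 0.76 with BAF250A and between -0.39 and -0.14 with BRD9.

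Among 6 spindle motors and microtubule proteins, 2 rose with BAF250A and 0 passed with BRD9 by the Wald test, an unadjusted p of 0.05 or limma. Tpx2, which activates Aurora A on spindle microtubules, had 7960 and 8247 normalised reads in the BAF250A knockdown and 4159 and 6071 in the BRD9 knockdown, against 3720 and 2413 in scrambled cells. Nusap1, which bundles spindle microtubules, had 1772 and 2132 in the BAF250A knockdown and 700 and 832 in the BRD9 knockdown, against 1031 and 285 in scrambled cells. The Tpx2 groups did not overlap, while for Nusap1 the BRD9 libraries lay between the 2 scrambled libraries. The log2 fold changes with BAF250A in the authors' deposited table were 1.39 (SE 0.44, adjusted p 0.00799) for Tpx2 and 1.54 (SE 0.56, adjusted p 0.0259) for Nusap1. With BRD9 the authors' deposited table gives 0.71 (SE 0.51, adjusted p 0.423) for Tpx2 and 0.19 (SE 0.61, adjusted p 0.894) for Nusap1. Kif11, the kinesin that pushes spindle poles apart, had 1431 and 1470 normalised reads in the BAF250A knockdown and 1058 and 863 in the BRD9 knockdown, against 1376 and 406 in scrambled cells. Hmmr, a spindle pole protein that also binds hyaluronan, had 1859 and 2208 in the BAF250A knockdown and 747 and 587 in the BRD9 knockdown, against 2189 and 544 in scrambled cells. For these genes the higher scrambled library lay near the BAF250A libraries and the lower one below them. Kif4, a chromosome-arm kinesin, and Kif2c, a kinesin that takes microtubules apart, had log2 fold changes in the authors' deposited table of 0.68 (SE 0.49) and 0.80 (SE 0.44) with BAF250A, neither of which passed.

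Of 6 genes of the central spindle and cytokinesis, 3 rose with BAF250A and 0 passed the Wald test with BRD9, where Racgap1 alone had an unadjusted p below 0.05 and limma called 0. Racgap1, a GTPase-activating protein of centralspindlin, had 10596 and 11370 normalised reads in the BAF250A knockdown and 6528 and 10665 in the BRD9 knockdown, against 3621 and 4406 in scrambled cells. Kif23, the kinesin of centralspindlin, had 2564 and 2730 in the BAF250A knockdown and 1251 and 1753 in the BRD9 knockdown, against 1228 and 555 in scrambled cells. Kif20a, a kinesin of the midzone, had 4983 and 5326 in the BAF250A knockdown and 2292 and 4138 in the BRD9 knockdown, against 2664 and 2098 in scrambled cells. Both centralspindlin genes had scrambled cells lowest without overlap, while for Kif20a the lower BRD9 library fell within the scrambled range. With BAF250A the authors' deposited table gives 1.45 (SE 0.42, adjusted p 0.00355) for Racgap1, 1.55 (SE 0.49, adjusted p 0.00794) for Kif23 and 1.11 (SE 0.43, adjusted p 0.0342) for Kif20a, which limma did not call (limma adjusted p 0.0553). With BRD9 the authors' deposited table gives 1.06 (SE 0.50, adjusted p 0.157) for Racgap1, 0.71 (SE 0.55, adjusted p 0.466) for Kif23 and 0.42 (SE 0.52, adjusted p 0.691) for Kif20a. Kif20a had 32.6% of its words in Cdc23, so the split of reads between these 2 genes is uncertain. Prc1, which crosslinks midzone microtubules, Ect2, the activator of RHOA at the furrow, and Anln, anillin of the contractile ring, had both BAF250A libraries above both scrambled libraries and did not pass. Their log2 fold changes with BAF250A in the authors' deposited table were 0.87 (SE 0.45), 0.96 (SE 0.52) and 1.16 (SE 0.55).

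Top2a, which untangles chromosomes, and Mki67, the proliferation marker Ki-67 that coats them, are often read as signs of cycling cells. Top2a had 13436 and 13378 normalised reads in the BAF250A knockdown and 4464 and 6805 in the BRD9 knockdown, against 8560 and 2422 in scrambled cells. It lies just outside the threshold with BAF250A, and limma called it there. The authors' deposited tables give Top2a 1.27 (SE 0.55, adjusted p 0.0681) with BAF250A and 0.02 (SE 0.61, adjusted p 0.991) with BRD9. Mki67 had 9487 and 8098 in the BAF250A knockdown and 4410 and 3992 in the BRD9 knockdown, against 13182 and 3347 in scrambled cells. Both knockdowns lay between the 2 scrambled libraries, and the authors' deposited tables give 0.11 (SE 0.57, adjusted p 0.912) with BAF250A and -0.94 (SE 0.61, adjusted p 0.36) with BRD9.

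Set against each other, the knockdowns differed in level for most of the 42 genes, but the test of the difference called none of them. Both BAF250A libraries lay above both BRD9 libraries for 36 of the 42 genes, or 85.7%, and below for 0, beside 31.4% and 28.6% of the 11284 genes with a mean of at least 100. The deposited log2 fold change of BAF250A minus that of BRD9 was positive for 41 of 42 with a median of 0.75. The exception was Mybl2 at -0.18. Tested as a difference divided by its combined error and adjusted over 16311 genes, 0 of the 42 passed, beside 0.552% of all genes called higher and 1.99% called lower, and 1, Cenpf, had an unadjusted p below 0.05, beside 8.35% of all genes. Cenpf differed by 1.89 (SE 0.81, adjusted p 0.334), Cenpe by 1.60 (SE 0.83, adjusted p 0.615) and Hmmr by 1.57 (SE 0.85, adjusted p 0.683). This test counts the spread of the scrambled libraries, which cancel in the difference. In limma fitted to all 6 libraries, 0 of the 42 passed, beside 1.55% of 14061 genes called higher and 3.03% lower, and 12 were higher and 0 lower at an unadjusted p below 0.05, beside 6.93% and 9.43%. In limma fitted to the 4 knockdown libraries alone, an alternative chosen after seeing the data, 7 were higher in the BAF250A knockdown and 0 lower: Ccnb2, Bub1, Cenpe, Cenpf, Hmmr, Nusap1 and Mki67. In that fit 2.67% of 14061 genes were called higher and 3.64% lower.

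The precision of these comparisons is set mainly by the scrambled and BRD9 libraries. Between the 2 libraries of a group, the median absolute log2 ratio of the 42 genes was 0.10 for BAF250A, 0.63 for BRD9 and 0.87 for scrambled cells, beside 0.15, 0.42 and 0.86 over the 11284 genes. None of the 42 differed more than 2-fold between the BAF250A libraries, 4 did between the BRD9 libraries and 18 between the scrambled libraries. The scrambled ratio followed base composition: across the 42 genes, the log2 ratio of the first scrambled library over the second had a Spearman rho of -0.79 with the GC content of the transcript and 0.56 with its length. Over 10583 genes the values were -0.71 and 0.56, and these are descriptions across genes that share their libraries. All 14 genes of lowest GC content were higher in the first scrambled library, and 0 of the 14 of highest GC content were. The log2 ratio of the BRD9 libraries had a rho of -0.68 with GC content across the 42 genes, and the difference between the knockdowns one of -0.56. Over the 10583 genes these were weaker, at -0.35 and -0.11. The 14 genes of lowest GC content had a BAF250A median of 1.31 on the log2 scale and 7 called higher, the middle 14 had 1.06 and 6, and the 14 of highest GC content had 0.49 and 2. The part of GC content in these results was not tested.

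**Figure D4:**
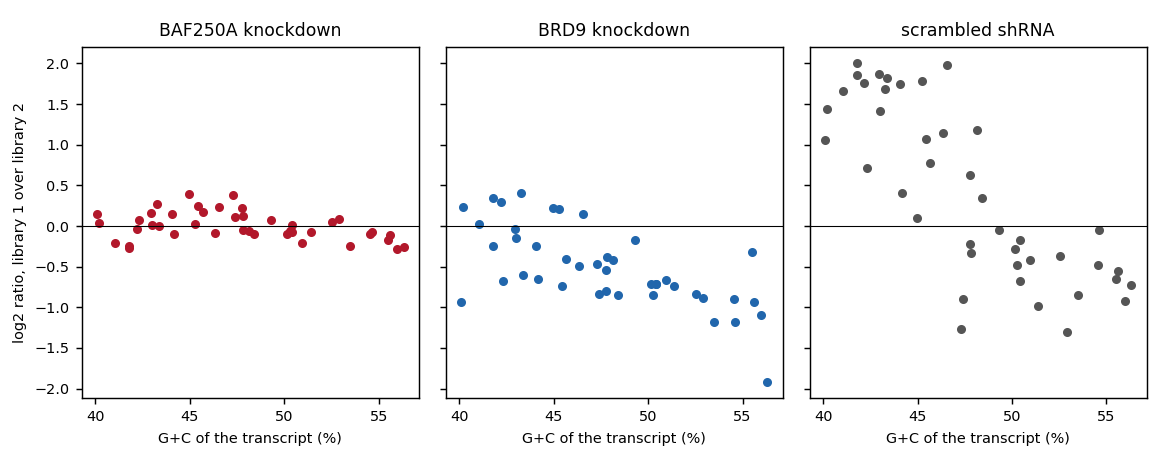
Log2 ratio of the 2 libraries of each group against the GC content of the transcript for the 42 genes. In scrambled cells the ratio is above 0 for all 14 genes of lowest GC content and below 0 for the 14 of highest, and in the BAF250A knockdown all ratios lie within -0.28 and 0.39.

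Leaving out single libraries moved the counts. Refitted by the model of the deposited tables over the 14061 genes, without the first scrambled library 20 of the 42 were higher in the BAF250A knockdown, beside 13.2% of all genes, and without the second 6 were, beside 8.33%. Without one or the other BAF250A library 9 and 8 were called, beside 7.84% of all genes in both cases. Called in all 4 fits were Ccnb1, Ccnb2, Cks2, Ube2c and Racgap1. All of these but Ccnb2 are among the genes with more than 10% of shared words. The shares were 46.9% for Ccnb1, 31.7% for Cks2, 25.1% for Ube2c and 11.5% for Racgap1, against 0% for Ccnb2. The part of read assignment in their calls was not tested. The BAF250A median of the 42 was 1.30 without the first scrambled library, 0.89 without the second, and 0.87 and 0.86 without the BAF250A libraries. Top2a had a log2 fold change of 2.37 (SE 0.66, adjusted p 0.0024) without the first scrambled library and 0.64 (SE 0.66, adjusted p 0.578) without the second, and Nusap1 had 2.65 and 0.89. With BRD9, Cks2 alone was called in all 4 fits. Ccnb1 missed the threshold in the BRD9 knockdown without the first scrambled library (adjusted p 0.0519), without the second (adjusted p 0.259) and without the second BRD9 library (adjusted p 0.327). Cenpf with BRD9 was -0.86 (SE 0.71, adjusted p 0.43) without the first scrambled library and -2.47 (SE 0.71, adjusted p 0.00607) without the second, and it missed the threshold without the second BRD9 library too (adjusted p 0.102). The BRD9 median of the 42 was 0.40, 0.01, 0.35 and -0.22 in these fits, so its sign turns without the second BRD9 library.

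Of 17 further APC/C subunits and adaptors, 7 were higher with BAF250A and 2 with BRD9 in the authors' deposited tables, led by Ube2s, the chain-extending enzyme of APC/C, at 2.45 and 2.06, and Anapc4, a scaffold subunit, at 1.85 and 1.55. Over all genes tested, 11.2% were called higher with BAF250A and 5.11% with BRD9 by the Wald test, and 17.5% and 9.33% were called lower. Of 28 other G2/M regulators tested, 8 were higher with BAF250A and 3 with BRD9, and none was lower by the Wald test, at an unadjusted p below 0.05 or by limma. The largest rises there were those of H2az1, a histone variant with 77.8% of its words in other genes, at 5.76 and 5.35 in the authors' deposited tables, and of Kpna2, an importin with 94.2% of its words in other genes, at 3.14 and 2.73. In scrambled cells H2az1 had only 73.5 and 38.2 normalised reads, against which stood 3540 and 3114 in the BAF250A knockdown and 2264 and 3176 in the BRD9 knockdown. Condensin, which compacts chromosomes, had 2 of 8 genes higher with BAF250A, Ncapd3 at 1.56 and Ncaph2, with 41.0% shared words, at 1.54 in the authors' deposited table, while with BRD9 the Wald test and limma called 0 and 1 was lower at an unadjusted p below 0.05.

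Other kinetochore genes had 1 of 27 higher with BAF250A, Cenpp at 1.29 in the authors' deposited table, and 1 lower with BRD9, Knl1, a kinetochore scaffold, at -1.79. Among all genes tested, the Wald test called 11.2% higher with BAF250A and 9.33% lower with BRD9. By limma 0 of the 27 passed in either knockdown. Neither of the 2 other lists of spindle and chromatid genes had a call with BAF250A: 0 of 7 other mitotic kinesins and 0 of 15 cohesin and separase genes passed the authors' Wald test or limma, and at an unadjusted p below 0.05 there were 1 and 0. Each had 1 gene lower with BRD9 in the authors' deposited table, Kif20b, a kinesin of cytokinesis, at -2.13 and Sgo2a, which protects centromeric cohesion and has 49.8% shared words, at -1.73. By limma 1 of the 7 kinesins was lower with BRD9 and 0 of the 15 cohesin and separase genes. Knl1, Kif20b and Sgo2a shared the pattern of Cenpf: Kif20b, for example, had 537 and 571 normalised reads in the BAF250A knockdown and 182 and 131 in the BRD9 knockdown, against 1164 and 315 in scrambled cells, which themselves differed more than 2-fold.

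Genes of DNA replication and the G1/S transition, which act earlier in the cycle, had 3 of 46 higher and 4 lower with BAF250A and 2 higher with BRD9, beside medians of 0.11 and 0.09. The shares of all genes tested were 11.2% higher and 17.5% lower with BAF250A, and 5.11% higher and 9.33% lower with BRD9. None of the shares among the 46 exceeded that of all genes. Pcna, the sliding clamp of the replication fork, with 38.0% shared words, was at 1.74 with BAF250A and 1.76 with BRD9 in the authors' deposited tables, and Fen1, a flap nuclease with 82.2% shared words, was at -1.73 with BAF250A. Among 19 CDK inhibitors, pocket proteins and DREAM subunits tested with BAF250A, 5 were higher and 1 lower. With BRD9, 3 of 18 tested were higher and 0 lower, where at an unadjusted p below 0.05 there was 1 lower and limma called 0 lower. Cdkn1c, the CDK inhibitor p57 with 28.4% shared words, had 969 and 925 normalised reads in the BAF250A knockdown and 10776 and 10387 in the BRD9 knockdown, against 9.04 and 9.54 in scrambled cells. The authors' deposited tables give Cdkn1c 6.49 (SE 0.52) with BAF250A and 9.71 (SE 0.54) with BRD9, and its difference between the knockdowns was -3.21 (SE 0.75, adjusted p 0.00152). Cdkn1a, the CDK inhibitor p21 that rises when myoblasts leave the cycle, was lower with BAF250A at -1.93 (SE 0.49, adjusted p 0.000562) in the authors' deposited table.

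Markers of the muscle lineage also differed between the groups. Of 10 markers of C2C12 cells, 8 were lower in the BAF250A knockdown and 1 was lower and 1 higher in the BRD9 knockdown. Over all genes tested, 17.5% were lower with BAF250A, and 9.33% were lower and 5.11% higher with BRD9. With BAF250A, 9 of the 10 had a negative log2 fold change, and the median was -1.88. The marker called lower with BRD9 was Myf5, at -1.78 (SE 0.62, adjusted p 0.0304) by the authors' Wald test. Myh3, embryonic myosin, had 2728 and 2661 normalised reads in the BAF250A knockdown and 103787 and 59774 in the BRD9 knockdown, against 47707 and 74138 in scrambled cells. Myod1 and Des, both among these 10 markers, were present in every library, Des at 81027 normalised reads or more. Myod1 had 7549 and 8349 in the BAF250A knockdown and 10349 and 16562 in the BRD9 knockdown, against 2763 and 5350 in scrambled cells. It was the marker called higher with BRD9, at 1.67 (SE 0.53, adjusted p 0.0142) by the authors' Wald test. Of 12 genes that mark neurons, epithelium, endothelium or macrophages, 4 had enough reads to be recovered per library, and their sums were 419 and 465 normalised reads in the BAF250A knockdown and 4573 and 6013 in the BRD9 knockdown, against 5106 and 7261 in scrambled cells. Most of these reads were of Tubb3, a neuronal tubulin. Tubb3 had 389 and 422 in the BAF250A knockdown and 3280 and 5739 in the BRD9 knockdown, against 4496 and 6892 in scrambled cells. Kdr was at 0 in both BAF250A libraries and at 2.18 and 3.46 in the BRD9 knockdown, against 214 and 126 in scrambled cells. Map2, also a neuronal gene, had 11.6 and 14.5 with BAF250A and 1264 and 249 with BRD9, against 272 and 65.9. By the authors' Wald test, 4 of 7 tested were lower with BAF250A and 0 higher, beside 11.2% of all genes higher. With BRD9, Kdr and Cd68 were lower and Map2 higher, of 8 tested. The 8 genes without recovered reads, such as Ptprc, Epcam and Cdh5, had a mean normalized count of at most 9.24 in the authors' deposited tables. The part of these lineage differences in the result for the mitotic genes was not tested.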

How the data were processed

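RNA sequencing of 6 libraries from C2C12 cells was analysed from 2 tables of 27179 genes, 1 per knockdown. Per the submitters' processing notes, the tools were DESeq2, RSEM, Bowtie, StringTie and HISAT and the build mm10, without roles, order or versions, and the design text says that a company made the libraries and ran the analysis. The protocol also names BAF180 as a target, which was not analysed here. Per the file headers, the authors deposited for each gene a mean normalized count (a signal averaged over the 4 libraries of a comparison). They also deposited, per the file headers, a log2 fold change with its standard error, and a Wald score. A p-value and an adjusted p-value complete the deposited table, and a recalculated Benjamini-Hochberg adjustment matched the deposited one. The tables do not state the direction, so a positive sign was taken to mean higher in knockdown cells, from the fall of Arid1a and Brd9 themselves.

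Reads per library were recovered as the whole numbers whose mean, log2 fold change and standard error match both tables under a negative binomial model with a normal prior on the group effect, with size factors read from genes of very low mean. Of 14337 genes with a mean of at least 10 in both tables, 14061 gave exactly 1 solution, 243 of these only within a wider tolerance. In 13324 genes each table alone gave 1 solution, and the scrambled reads were equal in 13323 of them. Tested on simulated data for 342 genes of known reads, the method resolved 323, all with the right reads. Normalised reads are reads divided by size factors over all 6 libraries, and spreads are given as both values of a group, since each has 2 libraries.

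The test of each knockdown is the authors' Wald test at an adjusted p below 0.05, and the difference between knockdowns was tested by its combined standard error with a normal p and Benjamini-Hochberg adjustment. Shared sequence is the share of 31-base words of a gene's longest coding transcript found in transcripts of another gene. Other transcripts of the gene itself were not examined. The recovered reads were also fitted with limma 3.58.1 (voom) in R 4.3.3. The deposited model was refitted with each library left out, keeping the spread of each gene estimated from all libraries of its comparison. These refits assume that a lone library varies like the others, and they are not independent of the library left out. Alternatives also covered a threshold of 0.01, a Bonferroni adjustment, a filter at a mean of 100, centred fold changes, an empirical null and little-shared genes. All 42 genes are named. Given in full are genes that were called and the 2 nearest the threshold in each knockdown, and from other lists at most the 2 largest called rises and falls. The 42 genes, the lists and the tests were chosen with earlier results of these data known.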

Additional observations from a re-analysis of the deposited data

How the results depend on the processing

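Of the counts of genes called, those in the BAF250A knockdown stayed at 15 higher without a filter on low means, with a mean of at least 100, with centred fold changes, over the genes with recovered reads and in limma, and 0 were lower under every alternative run. The BAF250A count was 9 at an adjusted p below 0.01, 2 with a Bonferroni adjustment, 9 among little-shared genes and 0 with an empirical null, whose SD of z was 2.18. With single libraries left out it ran between 6 and 20. The BRD9 count of 2 higher was 1 at 0.01, and it was 0 with a Bonferroni adjustment, with the empirical null (SD of z 1.58) and among little-shared genes. With libraries left out it ran between 1 and 2. The BRD9 count of 1 lower was 0 at 0.01, with a Bonferroni adjustment and with the empirical null. It was 2 with centred fold changes and over the genes with recovered reads, Cenpe being added in both, and it ran between 0 and 2 with libraries left out. For the difference between knockdowns, 0 genes were called under every alternative except limma on the knockdown libraries alone, which called 7 higher. The median log2 fold change ran between 0.74 and 1.30 with BAF250A and between -0.22 and 0.40 with BRD9, whose sign turned without the second BRD9 library and among little-shared genes. The cause of these shifts was not tested, apart from the smaller number of genes in the little-shared count. No paired analysis was possible because the recovered libraries carry no label A or B. With 2 libraries per group, the smallest log2 fold change called in size was 1.02 with BAF250A and 1.29 with BRD9.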
